A study of Homo sapiens with 8 samples.

Results

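The cholesterol and fatty acid synthesis genes described here are 38 genes of lipid metabolism, found as the gene probes of the arrays whose annotated gene name is a member or an older name of it (SC4MOL for MSMO1 and SC5DL for SC5D). All 38 were on the arrays, among 27274 gene names, and they had 47 of the 34127 gene probes. They comprise 7 genes of the mevalonate arm of cholesterol synthesis, 11 of the squalene-to-cholesterol arm, 8 genes of fatty acid synthesis and desaturation, 5 regulators of the SREBP transcription factors, 2 sterol transport genes and 5 genes of oxysterols and the LXR receptors. The study asked what silencing HOXB7, a homeobox transcription factor gene, does to gene expression in pancreatic ductal adenocarcinoma cells, and RNA of 2 cell lines was hybridized to one-color Agilent arrays. MIA PaCa-2 comes from a primary tumor and was kept in RPMI medium with 10% fetal bovine serum, and Capan-1 comes from a liver metastasis and was grown in IMDM with 20% serum. The siRNA group of each line (2 arrays) was transfected with a HOXB7-specific siRNA at 10 nM, using a lipid reagent, and taken after 48 hours, and the parental group of each line (2 arrays) was not transfected. The labels name no engineered allele in either line, no array had a scrambled siRNA, and the labels do not say which siRNA duplex was used. They also do not say that the duplicates were separate cultures, so p-values measure only the spread between these arrays.

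Cells make cholesterol from acetyl-CoA through mevalonate, then through squalene and lanosterol, and they make fatty acids from the same precursor. The SREBP transcription factors switch on most of these enzymes when sterols are scarce: SCAP carries SREBP out of the endoplasmic reticulum, and the INSIG proteins hold it there when sterols are plentiful. Oxysterols, such as the 25-hydroxycholesterol made by CH25H, hold SREBP back and activate the LXR receptors, which raise the cholesterol exporters ABCA1 and ABCG1 as well as SREBF1, and CH25H is also known as an interferon-induced gene.

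The 250 bases before the gene start are printed for 4 genes: INSIG1, the SREBP genes SREBF1 and SREBF2, and CH25H. The sequences are from RefSeq (build GRCh38.p14), 5′ to 3′ on the strand of the gene, and capitals mark a CCAAT box (CCAAT, or ATTGG on the other strand), a sterol response element (ATCAC and CCAC with any 1 base between them, or GTGG and GTGAT so spaced on the other strand) or an E-box (TCACGTGA, its own reverse complement).
INSIG1, chr7:155297628-155297877, plus strand: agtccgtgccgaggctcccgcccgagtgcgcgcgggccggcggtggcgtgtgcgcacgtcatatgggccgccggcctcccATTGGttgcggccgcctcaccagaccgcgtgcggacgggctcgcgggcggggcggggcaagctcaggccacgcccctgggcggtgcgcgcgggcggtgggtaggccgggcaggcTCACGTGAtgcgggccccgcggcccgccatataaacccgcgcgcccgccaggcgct
SREBF1, chr17:17836987-17837236, minus strand: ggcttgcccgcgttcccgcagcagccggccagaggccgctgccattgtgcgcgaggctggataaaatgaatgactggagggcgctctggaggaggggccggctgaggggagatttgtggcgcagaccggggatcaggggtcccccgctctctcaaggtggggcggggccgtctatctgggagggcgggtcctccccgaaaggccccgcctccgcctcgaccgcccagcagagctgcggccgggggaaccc
SREBF2, chr22:41832855-41833104, plus strand: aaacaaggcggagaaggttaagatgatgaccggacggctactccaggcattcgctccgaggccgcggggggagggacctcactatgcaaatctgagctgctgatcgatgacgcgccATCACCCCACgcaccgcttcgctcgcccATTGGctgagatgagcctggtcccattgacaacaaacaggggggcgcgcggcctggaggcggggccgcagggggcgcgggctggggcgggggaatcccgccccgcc
CH25H, chr10:89207318-89207567, minus strand: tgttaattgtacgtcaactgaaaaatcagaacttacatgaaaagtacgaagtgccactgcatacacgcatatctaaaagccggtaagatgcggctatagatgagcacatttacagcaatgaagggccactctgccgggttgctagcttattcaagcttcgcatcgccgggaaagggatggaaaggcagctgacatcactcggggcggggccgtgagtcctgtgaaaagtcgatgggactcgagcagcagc
The INSIG1 window held a CCAAT box and the E-box, the SREBF2 window held the sterol response element ATCACCCCAC followed by a CCAAT box, and these letters did not occur in the windows of SREBF1 and CH25H. Of the 38 members, 33 had a promoter in the RefSeq table, and each was scored on its first entry there. The windows printed above, that of SREBF1 included, are also those of the first entry. Any other start of a member was not searched. A CCAAT box, which is the letter sequence bound by the factor NF-Y, occurred in 17 of these (51.5%). The share was 32% of all 35116 promoters in the table, with every entry counted. By role, the CCAAT box occurred in 8 of 9 matched genes of the squalene-to-cholesterol arm, in 4 of 6 of the mevalonate arm, in 2 of 5 regulators, in 1 of 2 transport genes, in 2 of 7 fatty acid genes and in 0 of 4 genes of the oxysterol and LXR group. The sterol response element was found in 1 of 33 members, SREBF2, and in 0.125% of all promoters, and the E-box in 1 of 33, INSIG1, and in 0.854% of all. The direct repeat of the LXR response element (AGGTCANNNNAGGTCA, or TGACCTNNNNTGACCT on the other strand) occurred in 0 of 33 members and in 0.0142% of all promoters. These searches took only the exact letters given, within the 250 bases. Sites with other letters or farther from the start would be missed, so a count of 0 does not show that a gene lacks such an element. ABCG1, ACAT2, FASN, FDFT1 and SQLE had no entry.

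Levels are given as the log2 of the deposited intensity minus the 75th percentile of the gene probes on the same array, so a value of 0 is the 75th percentile, and they are compared only within a probe. A gene was called when at least 1 of its probes had a limma adjusted p under 0.05 and none passed in the other direction, and the brightest probe stands for the gene in counts and medians. Of the 47 probes, 44 were well above background on all 8 arrays, and no spot was saturated. HOXB7 stood at -7.77 and -7.78 on the MIA PaCa-2 siRNA arrays, which were not well above background, and at -4.82 and -4.10 in parental cells (limma adjusted p = 0.0174). In Capan-1 it read -5.26 and -4.80 with siRNA and -2.48 and -2.34 without it (adjusted p = 0.126), and the groups did not overlap in either line. An exact permutation test on 2 against 2 arrays cannot go below p = 0.33, so only the fit over all genes is used. The keratins KRT7, KRT8, KRT18 and KRT19 were well above background on all 8 arrays, but the epithelial markers EPCAM and CDH1 were so in Capan-1 and on none of the 4 MIA PaCa-2 arrays, where MUC1 was called lower with siRNA on 1 of its 2 probes (-0.92, adjusted p = 0.0249). The mesenchymal markers did not go one way between the parental lines: the mean percentile among all probes was 99.8 in MIA PaCa-2 against 66.4 in Capan-1 for VIM and 83.4 against 44.3 for ZEB1, but 44.8 against 80.1 for CDH2. Of the 4 leukocyte, 3 endothelial, 4 fibroblast, 4 acinar and 4 hepatocyte markers on the arrays, 9 were well above background on all 8 arrays and, unlike MUC1, 0 were called in either line with siRNA.

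In MIA PaCa-2 cells, 2 of the 37 members tested passed the adjusted threshold after HOXB7 siRNA. CH25H, which hydroxylates cholesterol, rose and was 2.94-fold higher, and SREBF1, which encodes SREBP-1, fell and was 1.45-fold lower on 1 of its 2 probes. Of the 18 genes of both cholesterol arms and the 8 fatty acid genes, 0 were called. The share of all 19169 genes tested that was called was 1.12% lower and 1.15% higher, so 1 lower and 1 higher of 37 members is near that background. At an unadjusted p under 0.05, 5 members were lower (SREBF1, INSIG1, ABCG1, LSS and FADS1) and 3 were higher (CH25H, FASN and ELOVL6), against 10.4% and 10.3% of all genes.

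CH25H lies on chromosome 10 (probe at chr10:90955781-90955840 on the minus strand, hg18). It stood at -1.72 and -1.85 with siRNA and at -3.28 and -3.41 in parental MIA PaCa-2 cells, with both siRNA arrays above both parental arrays. The difference was 1.55 (standard error 0.15, limma adjusted p = 0.021). In RNA of whole cultures, more cells that express a gene and more RNA per cell cannot be told apart. With 1 array left out at a time the difference was between 1.49 and 1.62, but its adjusted p was between 0.0242 and 0.0915, and it was under 0.05 only without siRNA replicate 2 of MIA PaCa-2. With a normexp background correction, which pulls dim probes together, it was 0.77 (adjusted p = 0.00188). Beside this, the summed linear level of 24 interferon-stimulated genes, relative to the 75th percentile, was 72.0 and 69.8 with siRNA and 79.8 and 81.1 in parental cells, a sum in which the bright ISG15 and IFIT1 weigh most. Of the 22 of these genes that were tested, 11 had a difference above 0 and 11 below, with a median of -0.010, and IFI27 and IFI6 were called higher and 0 lower. Whether interferon-stimulated genes have a part in the CH25H value was not tested.

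SREBF1 had 2 neighboring probes on chromosome 17 (chr17:17656144-17656203 and chr17:17656029-17656088, minus strand, hg18), and they differed. The brighter probe stood at 4.23 and 4.25 with siRNA and at 4.78 and 4.78 in parental MIA PaCa-2 cells, with no overlap. Its difference was -0.54 (standard error 0.088, limma adjusted p = 0.0484), and the call was lost whichever array was left out (adjusted p between 0.0913 and 0.168). The dimmer probe stood at -0.92 and -0.82 against -1.13 and -0.96, a difference of 0.17 in the other direction (adjusted p = 0.441). The fall of SREBF1 thus holds for 1 of its probes, and which transcripts each probe detects was not tested.

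Among the other SREBP regulators, INSIG1, the sterol-sensing anchor of the SREBP complex and itself an SREBP target, had the largest difference. Its level was 0.40 and 0.31 in MIA PaCa-2 with siRNA and 1.09 and 1.35 in parental cells, without overlap, which is a difference of -0.87 (95% interval -1.27 to -0.47, limma adjusted p = 0.0609). This missed the threshold, but INSIG1 was called lower after normexp background correction (adjusted p = 0.00711), where probes had to be above background throughout (0.0316) and where the spread was let follow the intensity (0.0199), and over all alternatives its adjusted p was between 0.00711 and 0.201. The homolog INSIG2 stood at 0.11 and 0.27 against 0.16 and 0.38 (difference -0.08), the escort protein gene SCAP at 1.46 and 1.66 against 1.84 and 1.62 (-0.17), and SREBF2, which drives mainly cholesterol synthesis, at 1.14 and 1.23 against 1.18 and 0.99 (0.10). The arrays of both groups overlapped for each of these, and their adjusted p was between 0.467 and 0.749.

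**Figure D1:**
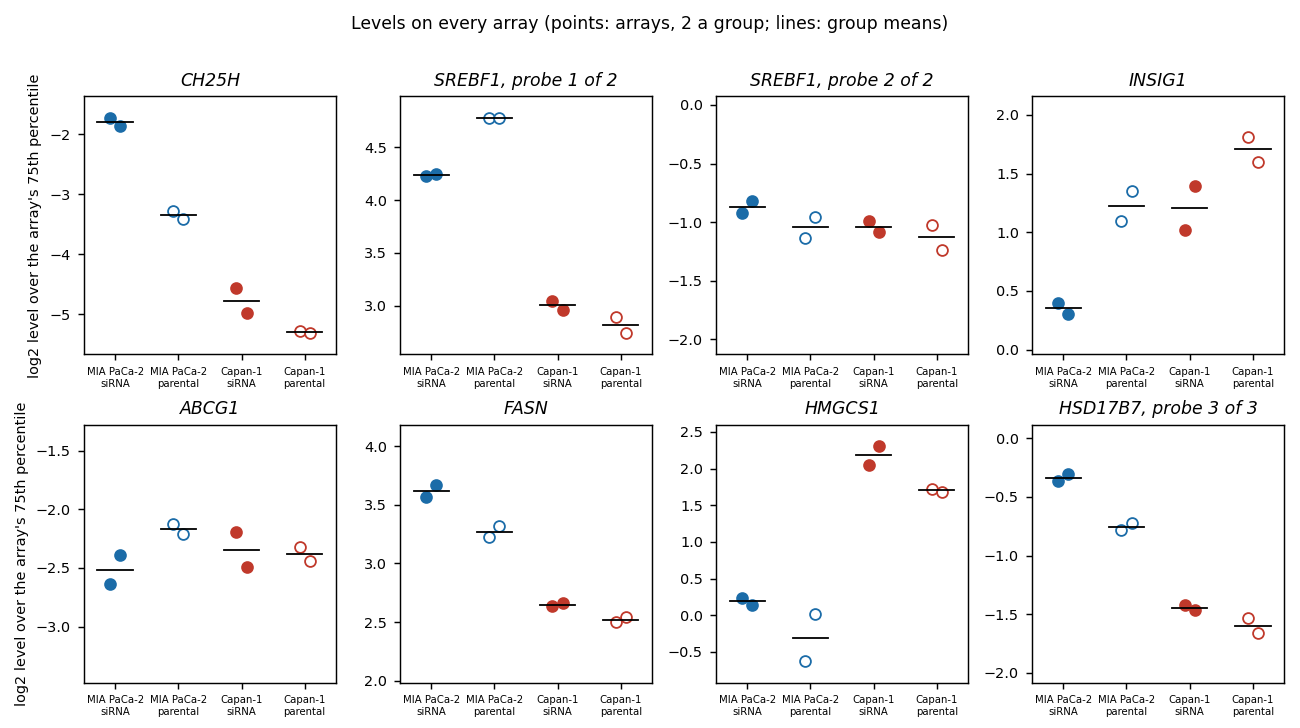
Log2 level over the 75th percentile of the array (vertical axis) for 7 genes, with 1 point per array, filled for siRNA and open for parental, blue for MIA PaCa-2 and red for Capan-1, and the group mean as a line; the vertical axis spans a different range in each panel. CH25H stands higher with siRNA in MIA PaCa-2. Both SREBF1 probes are shown because only the brighter one is lower in that line, and INSIG1 is lower on the siRNA arrays of both lines. HSD17B7 is drawn by the dimmest of its 3 probes, which had the largest difference in MIA PaCa-2 (0.42, beside 0.21 and 0.20).

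The LXR side held CH25H as its 1 called gene of 5. ABCG1, a cholesterol exporter raised by LXR, stood at -2.64 and -2.39 with siRNA and at -2.12 and -2.21 in parental MIA PaCa-2 cells, a difference of -0.35 (unadjusted p = 0.0479, limma adjusted p = 0.239). ABCA1, the other exporter, stood at -2.40 and -2.48 against -2.55 and -2.67 on its brighter probe and at -3.52 and -3.90 against -3.87 and -3.38 on the dimmer one, with differences of 0.17 and -0.086. The receptor genes were NR1H2 (LXR-beta), at -1.31 and -1.10 against -0.63 and -1.24, and NR1H3 (LXR-alpha), at 0.68 and 0.62 against 0.75 and 0.62. Both exporters and both receptors missed the threshold, with adjusted p between 0.239 and 0.912, and the parental arrays of NR1H2 differed from each other by more than the group means did.

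The enzymes of cholesterol synthesis had small differences in MIA PaCa-2. In the mevalonate arm the differences ranged from -0.18 (FDPS, which makes farnesyl diphosphate) to 0.50 (HMGCS1, which makes HMG-CoA), with a median of 0.074. HMGCS1 stood at 0.23 and 0.14 with siRNA and at -0.63 and 0.013 without (limma adjusted p = 0.265), and its parental arrays stood far apart: without parental replicate 1 the difference was 0.17 and without parental replicate 2 it was 0.82. In the squalene-to-cholesterol arm they ranged from -0.32 (LSS, lanosterol synthase, 2.29 and 2.38 against 2.80 and 2.50, adjusted p = 0.217) to 0.21 (HSD17B7, a sterol reductase), with a median of -0.036. The dimmer LSS probe gave -0.080, with overlap. The 3 probes of HSD17B7 had differences of 0.21, 0.20 and 0.42, with both siRNA arrays above both parental arrays on each. Its dimmest probe, at -0.37 and -0.31 against -0.79 and -0.72, had the smallest adjusted p (0.0732). It passed the threshold under the normexp correction, the strict background filter and the intensity trend.

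Among the fatty acid genes the differences ranged from -0.28 to 0.34, with a median of 0.079. FASN, the fatty acid synthase, stood at 3.57 and 3.67 with siRNA and at 3.22 and 3.32 in parental MIA PaCa-2 cells, a difference of 0.34 (standard error 0.084, limma adjusted p = 0.101). The elongase gene ELOVL6 stood at -0.59 and -0.87 against -0.98 and -1.15 (0.33, adjusted p = 0.222), and the desaturase gene FADS1 at 1.33 and 1.26 against 1.64 and 1.51 (-0.28, adjusted p = 0.175). In each of these 3 genes the groups did not overlap. Counting only the order of the arrays, 7 of the 37 members tested had both siRNA arrays below both parental arrays, against 24.3% of all genes, and 13 had both above, against 27.7%. Of the 2 sterol transport genes, NPC1, which exports cholesterol from lysosomes, differed by -0.0088, and STARD4, a cytosolic sterol carrier, was not well above background on any MIA PaCa-2 array and was not tested there.

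In Capan-1 cells, 0 of 38 members passed the adjusted threshold after HOXB7 siRNA, against 0% (lower) and 0.0053% (higher) of all 18884 genes tested. At an unadjusted p under 0.05, INSIG1 was lower, against 6.85% of all genes, and CH25H and IDI1 were higher, against 5.45%. INSIG1 and CH25H thus had the same sign as in MIA PaCa-2. INSIG1 stood at 1.02 and 1.39 with siRNA and at 1.81 and 1.60 in parental cells, a difference of -0.50 (limma adjusted p = 0.343), and CH25H at -4.57 and -4.99 against -5.27 and -5.31, a difference of 0.51 (adjusted p = 0.311). Without siRNA replicate 1 the CH25H difference was 0.31 and without siRNA replicate 2 it was 0.72, and that of INSIG1 was -0.68 without siRNA replicate 2 and -0.32 without siRNA replicate 1. In both genes the groups did not overlap. Interferon-stimulated genes stood higher on the same siRNA arrays: their summed level was 69.9 and 75.8 with siRNA and 50.3 and 50.1 in parental cells, the median difference of the 24 genes was 0.40, and 14 of 24 were higher and 0 lower at an unadjusted p under 0.05. Whether this has a part in the CH25H value was not tested.

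The other members differed by at most 0.48 in Capan-1. IDI1, which isomerizes isopentenyl diphosphate, stood at 2.10 and 2.02 against 1.78 and 1.74 (0.30, limma adjusted p = 0.349), and HMGCS1 at 2.05 and 2.30 against 1.72 and 1.68 (0.48, adjusted p = 0.43). On the low side SCAP stood at 1.98 and 1.92 against 2.13 and 2.24 (-0.23) and the sterol reductase gene TM7SF2 at -0.56 and -0.67 against -0.46 and -0.39 (-0.19), both without overlap. SREBF1 stood at 3.05 and 2.96 against 2.89 and 2.74 on the brighter probe (0.19) and at -0.99 and -1.08 against -1.03 and -1.24 on the dimmer one (0.093), so both differences were above 0 here, with adjusted p of 0.443 and 0.768. SREBF2 stood at 0.88 and 0.83 against 0.71 and 0.75 and INSIG2 at 1.62 and 1.70 against 1.57 and 1.45 on its brighter probe. In both the siRNA arrays lay above the parental arrays. The dimmer INSIG2 probe overlapped, at 0.65 and 0.58 against 0.62 and 0.63 (-0.0080).

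On the LXR side of Capan-1 the exporters and receptors differed little. ABCA1 stood at -4.48 and -4.42 against -4.69 and -4.41, and its dimmer probe was not well above background on any Capan-1 array. ABCG1 stood at -2.20 and -2.49 against -2.32 and -2.44, NR1H2 at -0.51 and -0.74 against -0.59 and -0.51 and NR1H3 at 1.62 and 1.51 against 1.5 and 1.46. For ABCA1, ABCG1 and NR1H2 the groups overlapped. Over all members, 8 of 38 had both siRNA arrays below both parental arrays, against 27.7% of all genes, and 20 had both above, against 26.4%. These 20 include ACAT2, HMGCS1, IDI1 and MVK of the mevalonate arm, DHCR7, EBP, HSD17B7 and SQLE of the squalene-to-cholesterol arm, and ACACA, ACLY, ELOVL6, FASN, LPIN1 and SCD of the fatty acid genes, each by 0.10 to 0.48.

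**Figure D2:**
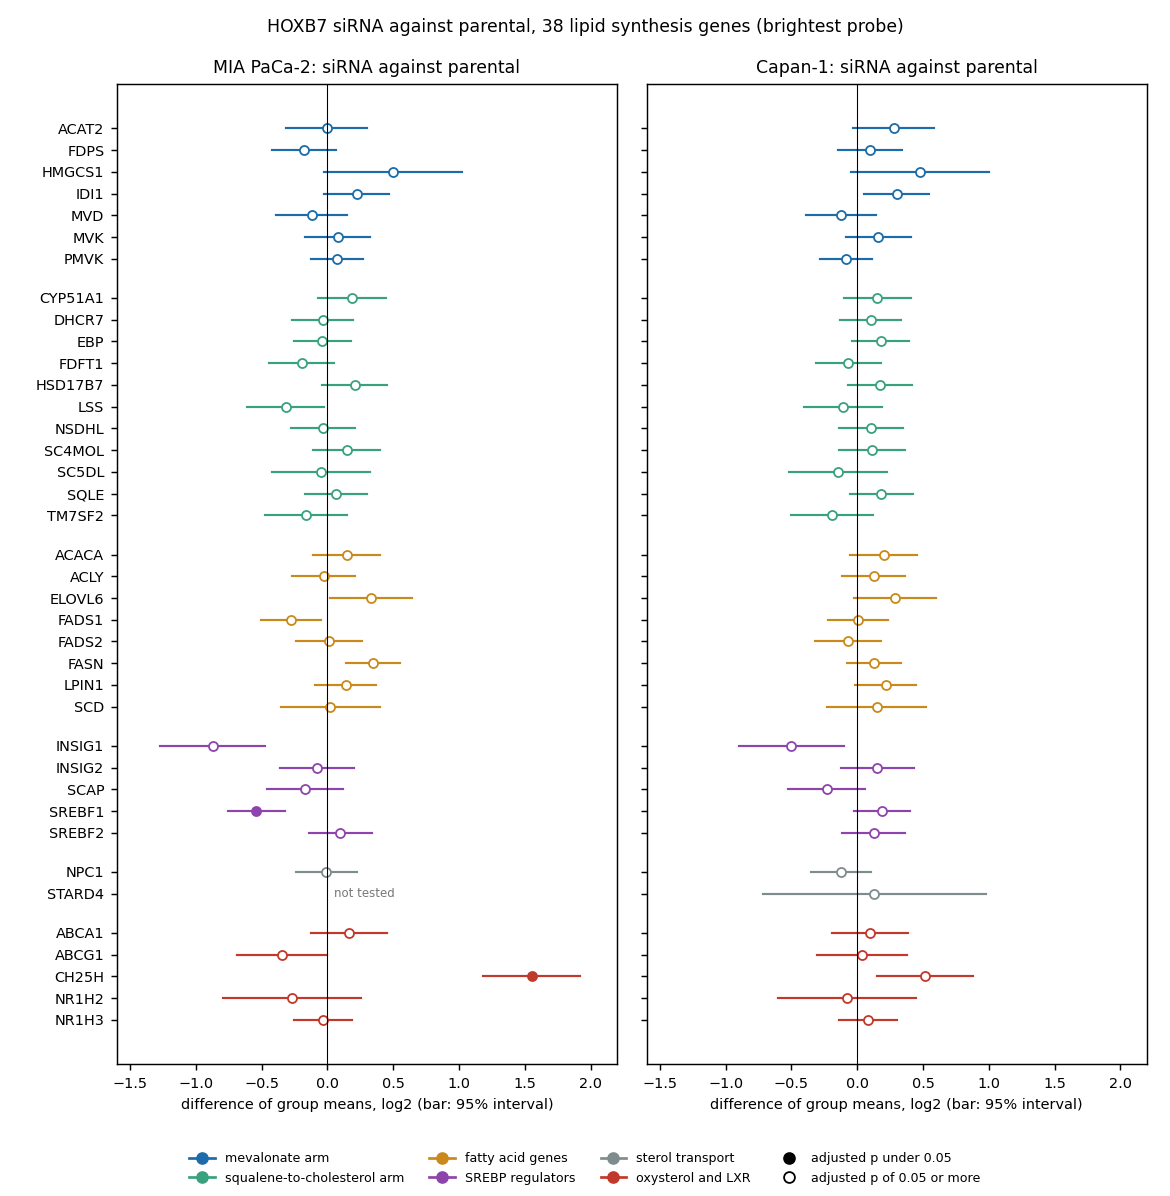
Log2 difference between the siRNA and parental group means (horizontal axis) with its 95% interval from the limma fit, for the brightest probe of each of the 38 genes by role, in MIA PaCa-2 (left) and Capan-1 (right); filled points passed an adjusted p of 0.05. Only CH25H and SREBF1 in MIA PaCa-2 are filled, most intervals cross 0, and INSIG1 lies left of 0 in both lines.

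The 2 cell lines were compared directly through the difference of their siRNA effects, MIA PaCa-2 minus Capan-1. By this test 0 of 38 members passed the adjusted threshold in either direction, against 0.00486% of 20574 genes below and 0% above. At an unadjusted p under 0.05, SREBF1 and STARD4 were below 0, against 5.07% of all genes, and CH25H was above, against 6.27%. The difference was -0.73 for the brighter SREBF1 probe (95% interval -1.03 to -0.42, limma adjusted p = 0.154) and 1.04 for CH25H (0.52 to 1.56, adjusted p = 0.196). The STARD4 value rests on MIA PaCa-2 arrays at background. For INSIG1 it was -0.37 (-0.94 to 0.19), and for HMGCS1 0.017 (-0.73 to 0.76). The brighter SREBF1 probe thus lay below the parental arrays in MIA PaCa-2 and above them in Capan-1, and the test of that difference did not pass the adjusted threshold.

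The lines do not share arrays, so the order of the arrays can be set side by side. Of the 37 members tested in both lines, 9 had both siRNA arrays above both parental arrays in each line (ACACA, CH25H, ELOVL6, FASN, HMGCS1, HSD17B7, IDI1, LPIN1 and MVK), against 10.3% of 17479 genes. INSIG1 and LSS, 2 of the 37, had both below in each line, against 11.3%. These orders are those of the brightest probe. The dimmer LSS probe gave -0.080 in MIA PaCa-2, with overlap, and 0.14 in Capan-1, with both siRNA arrays above both parental arrays. Among the 9, the dimmer probes of ACACA (MIA PaCa-2), ELOVL6 (Capan-1) and LPIN1 (both lines) overlapped, and all 3 HSD17B7 probes kept the order. The 9 genes are 9 of the 13 with this order in MIA PaCa-2 and 9 of the 20 in Capan-1. Each comparison set transfected cells against cells without any transfection, and the siRNA arrays lay at the first 2 positions of each slide. The methods describe plating for transfection in RPMI medium and name no exception for Capan-1, otherwise grown in IMDM. The lipid reagent, RNA delivery, position, a possible change of medium in Capan-1 and the loss of HOXB7 thus cannot be told apart here.

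The SREBP side, taken as the 26 genes of both sterol arms and fatty acid synthesis with INSIG1 and STARD4, 28 in all, and the LXR side, taken as the 5 genes of oxysterols and LXR, both had medians near 0 in MIA PaCa-2. There the median difference was 0.011 over the 27 SREBP-side genes tested and -0.036 over the LXR side, beside 0.016 over all genes tested. In Capan-1 it was 0.13 over 28 and 0.082 over 5, beside -0.0031. There 20 of 28 SREBP-side genes and 4 of 5 LXR-side genes had a difference above 0, beside 9306 of all 18884 genes, and 15 and 2 of them had both siRNA arrays above both parental arrays, beside 26.4% of all genes. With 1 array left out, the LXR-side median was between 0.029 and 0.14 in Capan-1 (lowest without siRNA replicate 1, highest without siRNA replicate 2) and between -0.10 and 0.042 in MIA PaCa-2 (above 0 only without parental replicate 1), and the SREBP-side median of MIA PaCa-2 between -0.0081 and 0.076. Relative to the median of all genes these 2 Capan-1 medians were 0.13 and 0.085, with or without scaling between arrays. With normexp they were 0.063 and 0.021 above that of all genes. In MIA PaCa-2 the SREBP-side median minus that of all genes was -0.0047 with the 75th percentile, -0.070 with normexp and 0.028 with quantile normalization. The median shift of the SREBP side from the parental mean was also taken by array, over all 28 genes with STARD4 included. It was 0.044 and -0.012 with siRNA in MIA PaCa-2 and 0.12 and 0.14 with siRNA in Capan-1.

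**Figure D3:**
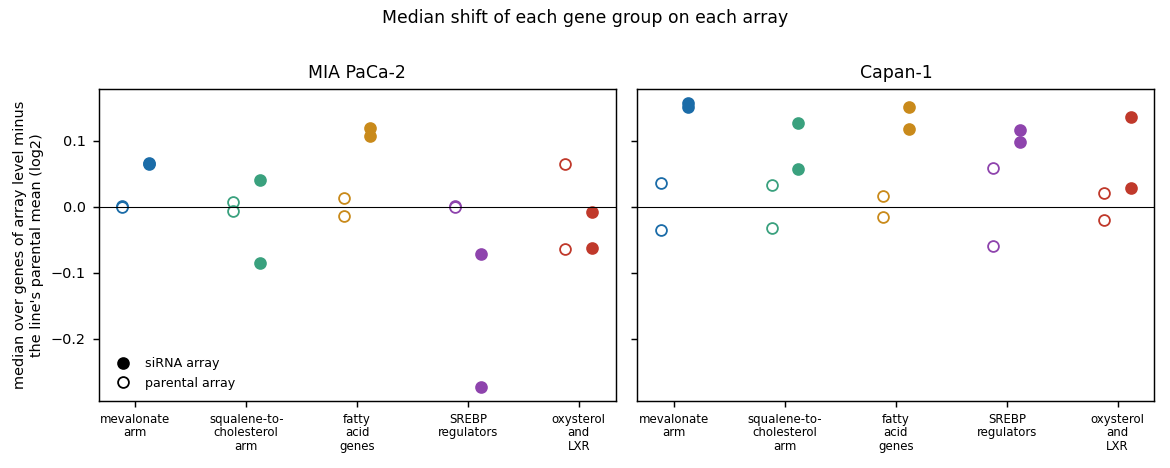
Median over the genes of each role of the level on an array minus the parental mean of that line (vertical axis, log2), with filled points for siRNA arrays and open points for parental arrays, 2 of each per line. In Capan-1 both siRNA arrays lie above both parental arrays for the 5 roles shown (not for the 2 sterol transport genes, which are not drawn and had 0.049 and -0.045 with siRNA against -0.039 and 0.039), by at most 0.16 from the parental mean, and in MIA PaCa-2 they do so for the mevalonate arm and the fatty acid genes.

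Between the untreated lines, the differences of these genes were wider than those with siRNA. In parental MIA PaCa-2 against parental Capan-1, 16 of 38 members stood lower and 15 stood higher, against 31.7% and 40.1% of all 20122 genes, so most genes of either kind differed between the lines. The differences of the brightest probes ran from -2.01 (SQLE) to 2.61 (LPIN1) for the 37 genes measured in both lines, STARD4 having only a bound, and the median over all 38 was -0.21 beside 0.10 over all genes. Each line had its own slide, medium and serum content, and the epithelial markers differed too (EPCAM was at least 3854-fold and CDH1 at least 861-fold lower in MIA PaCa-2, and the other 5 had differences from -5.44 for KRT7 to -0.21 for KRT18), so line, slide, culture medium and epithelial state cannot be told apart. By role the median was -0.20 in the mevalonate arm, -0.27 in the squalene-to-cholesterol arm, 0.50 in the fatty acid genes, -0.45 in the regulators and 0.21 on the LXR side.

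**Figure D4:**
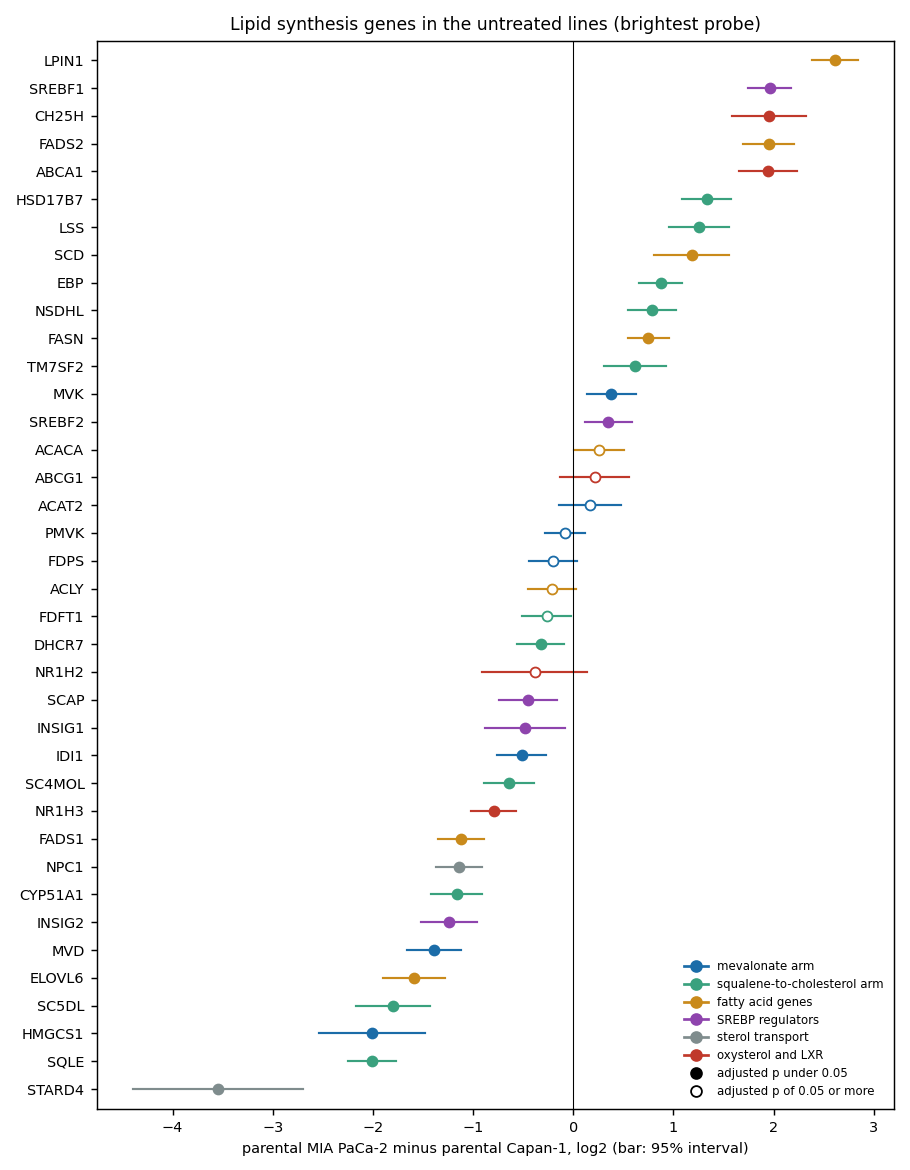
Log2 difference of parental MIA PaCa-2 minus parental Capan-1 (horizontal axis) with its 95% interval from the limma fit, for the brightest probe of each of the 38 genes, ordered by value and colored by role, with filled points for an adjusted p under 0.05. LPIN1, SREBF1, CH25H, FADS2 and ABCA1 have the largest differences above 0, and STARD4, SQLE, HMGCS1, SC5DL and ELOVL6 the largest below 0, the point of STARD4 being set against MIA PaCa-2 arrays at background.

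In the mevalonate arm, 3 genes were lower in MIA PaCa-2 and 1 was higher. HMGCS1 stood at -0.63 and 0.013 on the parental MIA PaCa-2 arrays and at 1.72 and 1.68 on the parental Capan-1 arrays, 4.03-fold lower in MIA PaCa-2 (limma adjusted p = 3.09e-04). MVD, which makes isopentenyl diphosphate, read 0.18 and 0.31 in MIA PaCa-2 with siRNA, 0.45 and 0.28 in parental MIA PaCa-2, 1.72 and 1.54 in Capan-1 with siRNA and 1.74 and 1.77 in parental Capan-1 (-1.39 between the parental groups). For IDI1 the parental MIA PaCa-2 arrays read 1.17 and 1.33, those of Capan-1 1.78 and 1.74, and its MIA PaCa-2 siRNA arrays 1.55 and 1.39 (-0.52). These 3 enzymes stood lower in MIA PaCa-2 on every array, whatever the treatment. Mevalonate kinase, MVK, was the higher one, at 3.10 and 3.08 in MIA PaCa-2 with siRNA, 3.01 and 3.01 in parental MIA PaCa-2, 2.80 and 2.79 in Capan-1 with siRNA and 2.76 and 2.51 in parental Capan-1 (0.38). ACAT2, PMVK and FDPS were not called, with differences of 0.17, -0.082 and -0.20.

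The squalene-to-cholesterol arm was split, with 5 genes lower and 5 higher in MIA PaCa-2. SQLE, the squalene epoxidase, read 1.14 and 0.98 in MIA PaCa-2 with siRNA, 0.95 and 1.04 in parental MIA PaCa-2, 3.21 and 3.16 in Capan-1 with siRNA and 3.07 and 2.94 in parental Capan-1, and was 4.03-fold lower in parental MIA PaCa-2 (limma adjusted p = 1.07e-05). The lathosterol oxidase gene SC5DL read -5.48 and -5.66 in MIA PaCa-2 with siRNA, -5.73 and -5.32 in parental MIA PaCa-2, -3.83 and -3.91 in Capan-1 with siRNA and -3.75 and -3.70 in parental Capan-1 (-1.80). CYP51A1, the lanosterol demethylase, read 2.75 and 2.68 in MIA PaCa-2 with siRNA, 2.53 and 2.52 in parental MIA PaCa-2, 3.75 and 3.94 in Capan-1 with siRNA and 3.61 and 3.77 in parental Capan-1 (-1.16). In all 3 the 4 MIA PaCa-2 arrays lay below the 4 Capan-1 arrays, and with normexp the difference of the dim SC5DL was -0.37. So they did for SC4MOL, a sterol methyl oxidase, at -1.93 and -1.94 against -1.39 and -1.20 in the parental cells and -1.81 and -1.78 against -1.26 and -1.11 with siRNA (-0.64, and -0.39 with normexp). DHCR7, the last reductase of the pathway, had the smallest called difference of the arm (-0.33, adjusted p = 0.0217), with 3.66 and 3.72 in MIA PaCa-2 with siRNA, 3.81 and 3.64 in parental MIA PaCa-2, 4.13 and 4.18 in Capan-1 with siRNA and 4.0 and 4.10 in parental Capan-1.

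The other 5 called enzymes of this arm were higher in MIA PaCa-2. LSS stood at 2.80 and 2.50 on the parental MIA PaCa-2 arrays and at 1.36 and 1.43 on the parental Capan-1 arrays, with 1.32 and 1.25 on the Capan-1 siRNA arrays (2.39-fold higher, limma adjusted p = 1.91e-04), and its dimmer probe gave 1.47. HSD17B7 read 0.70 and 0.48 in MIA PaCa-2 with siRNA, 0.41 and 0.35 in parental MIA PaCa-2, -0.79 and -0.76 in Capan-1 with siRNA and -0.90 and -0.99 in parental Capan-1 on its brightest probe (1.33), and 1.38 and 0.85 were the differences of its other probes. These 2 enzymes stood higher in MIA PaCa-2 on all of their probes. EBP, the sterol isomerase, read 5.36 and 5.22 in MIA PaCa-2 with siRNA, 5.34 and 5.32 in parental MIA PaCa-2, 4.62 and 4.65 in Capan-1 with siRNA and 4.51 and 4.40 in parental Capan-1 (0.87). NSDHL, a sterol dehydrogenase, read 3.15 and 2.99 in MIA PaCa-2 with siRNA, 3.10 and 3.10 in parental MIA PaCa-2, 2.46 and 2.38 in Capan-1 with siRNA and 2.39 and 2.24 in parental Capan-1 (0.78). TM7SF2 stood at 0.34 and 0.041 against -0.46 and -0.39 in parental cells and at -0.047 and 0.11 on the MIA PaCa-2 siRNA arrays (0.62). FDFT1, squalene synthase, was not called (-0.27, adjusted p = 0.0543). LSS and SQLE catalyze neighboring steps, and their differences had opposite signs.

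MIA PaCa-2 had higher levels of 5 fatty acid genes and lower levels of 2. LPIN1, a phosphatidate phosphatase that makes diacylglycerol, had the largest difference of all members above 0: it read 2.96 and 2.92 in MIA PaCa-2 with siRNA, 2.79 and 2.81 in parental MIA PaCa-2, 0.31 and 0.50 in Capan-1 with siRNA and 0.15 and 0.22 in parental Capan-1, and was 6.12-fold higher in parental MIA PaCa-2 (limma adjusted p = 3.53e-06). Its dimmer probe was not well above background on either parental Capan-1 array (it was on 1 siRNA array of that line) and was at least 3.7-fold higher in parental MIA PaCa-2, a bound set by the background level. The desaturase gene FADS2 read 1.30 and 1.16 in MIA PaCa-2 with siRNA, 1.28 and 1.17 in parental MIA PaCa-2, -0.71 and -0.89 in Capan-1 with siRNA and -0.75 and -0.71 in parental Capan-1 (3.86-fold higher). Its neighbor FADS1 on chromosome 11 went the other way, at 1.64 and 1.51 against 2.76 and 2.63 in parental cells and 2.73 and 2.67 on the Capan-1 siRNA arrays (2.18-fold lower). The stearoyl-CoA desaturase gene SCD read 1.62 and 1.93 in MIA PaCa-2 with siRNA, 1.59 and 1.91 in parental MIA PaCa-2, 0.73 and 0.70 in Capan-1 with siRNA and 0.63 and 0.51 in parental Capan-1 (1.18). FASN stood at 3.22 and 3.32 against 2.50 and 2.55 in parental cells and 2.64 and 2.66 on the Capan-1 siRNA arrays (0.75). All 4 MIA PaCa-2 arrays were above all 4 Capan-1 arrays for LPIN1, FADS2, SCD and FASN. ELOVL6 was lower, at -0.98 and -1.15 against 0.58 and 0.47 in parental cells and 0.87 and 0.76 on the Capan-1 siRNA arrays (-1.59, and -2.48 on its dimmer probe). ACACA, the acetyl-CoA carboxylase, was called by its dimmer probe, at -0.95 and -0.95 in MIA PaCa-2 with siRNA, -0.76 and -1.01 in parental MIA PaCa-2, -1.41 and -1.37 in Capan-1 with siRNA and -1.49 and -1.49 in parental Capan-1 (0.60, adjusted p = 0.00246), while the brighter one gave 0.26 (adjusted p = 0.0669). ACLY, the ATP citrate lyase, was not called (-0.21).

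The regulators differed between the lines in both directions. SREBF1 stood 3.9-fold higher in parental MIA PaCa-2 on the brighter probe, at 4.78 and 4.78 against 2.89 and 2.74 (limma adjusted p = 7.74e-06), whereas the dimmer probe, at -1.13 and -0.96 against -1.03 and -1.24, gave 0.086 (adjusted p = 0.524). The 2 probes thus also disagreed here. SREBF2 was higher, with a difference of 0.35. The lower ones were INSIG2, with -1.24 and -1.37 on its 2 probes, SCAP, with -0.45, and INSIG1, with -0.48 (adjusted p = 0.0376). The INSIG1 call was lost without parental replicate 1 of MIA PaCa-2, either of its siRNA arrays or either parental array of Capan-1 (adjusted p of 0.0577 to 0.174). Some smaller differences were also lost when a parental array was left out, with adjusted p of at most 0.114: DHCR7 and SCAP without replicate 2 of either line, SREBF2 without replicate 1 of either line, and MVK without either MIA PaCa-2 replicate. In Capan-1, DHCR7 was further lost without parental replicate 1, and SREBF2 and MVK without parental replicate 2. Both transport genes were lower in MIA PaCa-2. STARD4 read -7.54 and -7.97 in MIA PaCa-2 with siRNA, -7.07 and -5.99 in parental MIA PaCa-2, -2.78 and -2.93 in Capan-1 with siRNA and -2.99 and -2.98 in parental Capan-1. As no MIA PaCa-2 array had it well above background, it was at least 8.08-fold lower there, and with normexp its difference was -0.70. NPC1 read -0.31 and -0.18 in MIA PaCa-2 with siRNA, -0.21 and -0.26 in parental MIA PaCa-2, 0.80 and 0.76 in Capan-1 with siRNA and 0.83 and 0.98 in parental Capan-1 (-1.14).

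On the LXR side, CH25H was 3.87-fold higher in parental MIA PaCa-2 than in parental Capan-1 (limma adjusted p = 7.37e-05), the line in which it was also called with siRNA. With a normexp correction this difference was 0.42 in place of 1.95, and the probe was dim in Capan-1. ABCA1 was 3.85-fold higher on its brighter probe (adjusted p = 2.81e-05; difference 0.63 in place of 1.94 with normexp) and at least 4.88-fold higher on the dimmer one. NR1H3 was lower, with a difference of -0.80 (adjusted p = 3.98e-04). NR1H2 and ABCG1 were not called, with differences of -0.39 and 0.21. So the exporter ABCA1 and the receptor NR1H3 had opposite signs between the lines.

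Among 54 other genes of sterol and fatty acid metabolism, 50 were tested in MIA PaCa-2, of which 2 were called lower (beside 1.12% of all genes) and 1 higher (beside 1.15%) with siRNA. The lower ones were ACSL3, a long-chain acyl-CoA synthetase (-0.93, limma adjusted p = 0.0272), and ME1, malic enzyme, which supplies NADPH (-0.70, adjusted p = 0.0317), and the higher one was the acyl-CoA synthetase ACSL5 (1.01, adjusted p = 0.0355). In Capan-1, 0 of 50 were called, but 2 stood lower (beside 6.85% of all genes) and 5 stood higher (beside 5.45%) at unadjusted p-values under 0.05, and ACSL3 gave -0.75 (adjusted p = 0.143). Between the parental lines 14 of 51 stood lower in MIA PaCa-2 (beside 31.7% of all genes) and 29 stood higher (beside 40.1%). A rule like that in the study's methods takes as changed what lies outside the interval spanned by the parental duplicates at the same intensity. By it, the members called in MIA PaCa-2 were INSIG1 (lower, against 0.271% of genes) and CH25H (higher, against 0.308%). The interval rule called 0 members in Capan-1, where 0.921% of genes were lower and 1.24% higher. The study also asked for at least 2 probes per gene, signal in most of them and full agreement in direction. Those criteria were not applied here, and INSIG1 and CH25H, with 1 probe each, would not meet the first of them.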

How the data were processed

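The authors labeled total RNA with Cy3, hybridized it to one-color Agilent arrays and read them with Agilent Feature Extraction (version 9.5.3 per the submitters' processing notes). The deposited intensity of each spot, background-subtracted by that software, was used. A deposited table of log2 values scaled to each array's 75th percentile served as an alternative. Spots flagged as outliers were left out, spots of 1 probe were averaged, and log2 intensity minus the 75th percentile over gene probes was fitted for 4 group means over 8 arrays with lmFit and eBayes of limma 3.58.1 in R 4.3.3. Probes entered a test if both arrays of at least 1 group in it exceeded background clearly, and p-values were adjusted by Benjamini-Hochberg over all probes tested. Of the spots, 69.2% to 74.3% per array were well above background, 0 were saturated, and the 2 arrays per group limit the precision. Probe positions are those of the arrays' own annotation (hg18).

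Members and lists were chosen with earlier results of these data known. Values on every array were given for members past an adjusted p of 0.05 in any comparison, for the LXR side and the SREBP regulators, and for the 3 largest rises and falls per line. Same-numbered arrays deviated from their group means with correlations of 0.019 and 0.031, so replicate numbers were not treated as pairs. The scripts were tested on simulated data. Alternatives were normexp correction with an offset of 50, quantile or no scaling, outlier spots kept, the deposited log2 values, other filters on dim probes, a replicate block, an intensity trend, each line alone, all probes of a gene averaged, each array left out and, chosen after seeing the data, scaling to the median of probes above background on all 8 arrays. For the interval rule, the span held 99% of parental differences in windows of 1000 probes, which the methods do not state in this form. The study's criteria on the number, signal and agreement of a gene's probes were left out.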

Additional observations from a re-analysis of the deposited data

How the results depend on the processing

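In MIA PaCa-2 the count of called members, 1 lower and 1 higher, became 2 lower and 2 higher with normexp and with only probes above background on all 8 arrays (INSIG1 and HSD17B7 joining) and 2 lower and 3 higher with an intensity trend (FASN too). It was 0 and 0 without scaling, without a filter on dim probes, with each line fitted alone and with the replicate block, under which the adjusted p of CH25H was 0.171 and that of SREBF1 0.185. With an array left out it was 0 to 0 lower and 0 to 1 higher. Over all alternatives the adjusted p of CH25H was 0.00188 to 0.171 and that of SREBF1 0.0104 to 0.185. In Capan-1, and for the difference between the lines, 0 members were called under every alternative.

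Without scaling the median of all genes was -0.197 for MIA PaCa-2 and -0.156 for Capan-1, and the medians were -0.2017 (SREBP side) and -0.2486 (LXR side) in MIA PaCa-2, and the Capan-1 ones -0.0264 and -0.0707. The SREBP-side median of MIA PaCa-2 was -0.0009 with normexp and -0.0081 to 0.0761 with an array left out, and the LXR-side median then -0.1031 to 0.0416 in MIA PaCa-2 and 0.0286 to 0.1357 in Capan-1. Differences that changed sign without scaling were those of ABCA1 (-0.0478) and SREBF2 (-0.1141) in MIA PaCa-2 and of NR1H3 (-0.0707), ABCA1 (-0.0554), ABCG1 (-0.1169) and SREBF2 (-0.0291) in Capan-1, and with normexp that of INSIG2 in MIA PaCa-2 (0.0044). With an array left out, sign changes occurred for NR1H2 (-0.5751 to 0.0416), NR1H3 (-0.1031 to 0.0319) and INSIG2 (-0.1867 to 0.0269) in MIA PaCa-2 and for NR1H2 (-0.1934 to 0.0367), ABCA1 (-0.0446 to 0.2395) and ABCG1 (-0.1101 to 0.182) in Capan-1. Apart from what the scaling shifts by construction, the cause was not tested. Between the parental lines 13 to 17 members were lower and 13 to 15 higher with an array left out. The differences of CH25H, ABCA1, SC5DL and STARD4 between the parental lines shrank most with normexp, and why was not tested. CH25H and ABCA1 were dim in Capan-1, and SC5DL and STARD4 were dim in MIA PaCa-2. Of their brightest probes, only that of STARD4 was not well above background there.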
